A study of Arabidopsis thaliana with 14 samples.

Results

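The transcripts described here were measured by 125 probe sets, of 22746 on the array, that stood at least 1 higher on the log2 scale in gir than in Col-7 inflorescences and differed little between gir and Col-7 roots. A probe set belonged if the mean of log2(intensity + 26) in gir inflorescences exceeded that in Col-7 inflorescences by 1 or more, if every gir inflorescence array lay above every Col-7 one, and if the gir minus Col-7 difference in roots lay between -0.4 and 0.4. Of all probe sets, 171, or 0.752%, met both inflorescence conditions, and 131 of these also met the root condition, which 89.0% of all probe sets met. Then 6 were left out by name, being AT3G62930, AT5G52750, AT5G52760, AT1G35210, AT1G10340 and MSRB9, which leaves the 125 members. The count leans on single arrays: without gir inflorescence replicate 1, 193 probe sets met the rule, 119 of them members. Of the members, 58 name 1 gene each, 4 name several genes, and 63 have no gene name in the tables used here and are counted but not named. The genotype differences in both tissues chose the members and are given as descriptions, with no test.

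The plants were Arabidopsis thaliana of the gir mutant, which takes its name from glucose and root elongation, and of the wild type Col-7. Soil-grown plants aged 33 days gave the inflorescences, with flowers already opened or opening taken off, measured on 4 gir and 4 Col-7 arrays. Roots came from plants aged 21 days that were first kept on plates without glucose and then on plates with 4% glucose, on 3 gir and 3 Col-7 arrays. The time on the first medium is given as 11 days, followed by 10 days on glucose, in one description and begins with 7 days on a first plate in another. The labels name 1 gir mutant, its allele is not stated, and no table used here ties it to a probe set, so the mutated gene was not analysed here. The labels do not say whether plants were pooled or replicates came from separate plants, so p-values measure only the spread between these arrays, part of which may be technical. Tissue, age, medium and glucose change together between inflorescences and roots and cannot be told apart.

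Several of the named members belong to families that plants use in rapid responses. Proteins with a TIR domain act in pathogen recognition, calmodulin-like proteins read calcium signals, and plant U-box ligases such as PUB23 tag proteins for turnover and hold immune responses in check. STZ, also called ZAT10, is a zinc finger repressor that is switched on by many stresses. Plants short of oxygen switch on a shared set of core hypoxia genes in many organs. Other members belong to classes that hold genes known from flowers. These are CC-type glutaredoxins, a plant-specific class to which regulators of petal and anther development belong, and small secreted peptides, some made in reproductive organs.

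The precision here is limited by the number of arrays. Pearson correlations of the log2 values lay between 0.983 and 0.993 within inflorescence groups and between 0.955 and 0.971 across genotypes in inflorescences. In roots they lay between 0.989 and 0.992 within groups and between 0.985 and 0.987 across genotypes. Marker genes set the tissues apart as labelled: the summed intensity of 3 measured root hair and root epidermis markers was 3443 to 3637 in gir roots and 2914 to 3195 in Col-7 roots, and at most 95.3 on any inflorescence array. All 11 measured late pollen markers fell in gir inflorescences in the limma fit, with a median difference of -2.57. Their summed intensity was 5921 to 9418 on gir arrays, against 43940 to 48200 on Col-7 arrays. None of the 6 measured tapetum and pollen wall markers and none of the 3 carpel and ovule markers passed that test. Of 2 measured green tissue markers 1 rose, and their sum was 20580 to 22700 on gir arrays, against 16470 to 18490 on Col-7 arrays. No petal and stamen identity marker had a probe set naming it alone. In bulk tissue, fewer cells of a type and less RNA per cell cannot be told apart. Pollen markers are thus lower on the same arrays on which the members are higher, and whether this has a part in the members' levels was not tested.

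**Figure D1:**
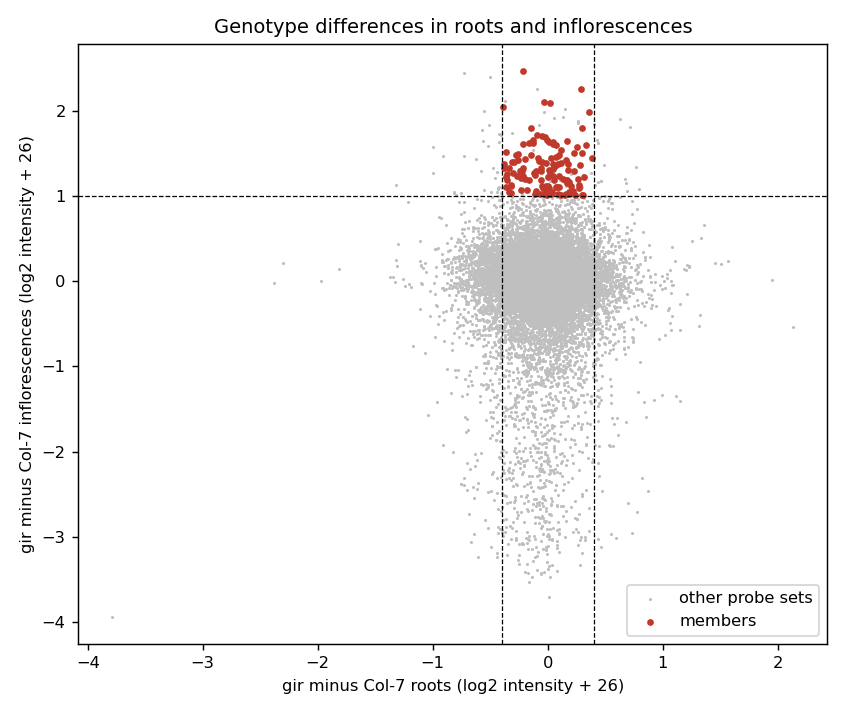
Genotype difference in roots (horizontal axis) and in inflorescences (vertical axis) of 22746 probe sets, both gir minus Col-7 means of log2(intensity + 26). Red points are the 125 members, grey points all others, and dashed lines mark the limits of 1 in inflorescences and of -0.4 and 0.4 in roots. The members lie between 1.01 and 2.46 on the vertical axis, and many more grey points stretch downward than upward.

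The members' inflorescence difference had a median of 1.29 and ran from 1.01 to 2.46, against a median of 0.05 over all probe sets. Most lay close to the limit: 97 members lay between 1 and 1.5, 23 between 1.5 and 2, and 5 above 2. The root difference had a median of -0.0024, with 63 members below 0 and 62 above. On the limit of 1, the named member just inside was STZ at 1.006, and AT4G15680 and AT3G48640 lay just outside at 0.993 and 0.992. On the lower root limit AT4G18340 at -0.391 and AT1G43910 at -0.382 lay inside, and AT2G47560 at -0.406 and BGLU31 at -0.408 lay outside. On the upper root limit only unnamed probe sets lay nearest, at 0.383 and 0.358 inside and 0.406 and 0.429 outside. In the limma fit of the 8 inflorescence arrays 123 members passed the threshold, where 7.08% of all probe sets passed as higher and 8.64% as lower (1610 and 1965, or 2263 and 1817 with each array centred on its median). AT1G04660 and 1 unnamed probe set did not. The rule used this contrast, so the count is no result about the members.

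By their medians the members were brighter than all probe sets in gir inflorescences and dimmer in Col-7 inflorescences. The rule chose members by the difference between these values, so this contrast is a description only. Median intensity over the 125 members was 355, 401, 399.6 and 406 on the gir inflorescence arrays, against 104, 109, 162 and 146 on the Col-7 ones. All probe sets had medians between 220.4 and 231.9 on these arrays. On gir inflorescence arrays 11 members, or 8.8%, stayed below the array's own 40th percentile every time, which 36.9% of all probe sets did. On Col-7 inflorescence arrays 51 did, or 40.8%, beside 37.3% of all probe sets. In roots the members' medians were 178, 175 and 167 on gir arrays and 208, 187 and 168 on Col-7 arrays. There 52 members, or 41.6%, stayed below the 40th percentile on every gir root array, beside 38.1% of all probe sets. On every Col-7 root array 50 did, or 40%, beside 37.7% of all probe sets. Fold changes of such dim transcripts are understated on the log2(intensity + 26) scale. Members ranged widely in level: their mean intensity ran from 45.2 to 7955 in gir inflorescences and from 6.7 to 2771 in Col-7 inflorescences.

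The members also varied among replicates. The median SD of a member on the log2 scale was 0.245 among gir inflorescences and 0.322 among Col-7 inflorescences, against 0.177 and 0.149 over all probe sets. In roots it was 0.143 among gir and 0.154 among Col-7 arrays, against 0.113 and 0.130 over all probe sets. In Col-7 inflorescences most members were lower on replicates 1 and 2 than on replicates 3 and 4. Of the 125 members, 28 and 43 lay above their Col-7 group mean on replicates 1 and 2, and 99 and 85 did on replicates 3 and 4. In gir inflorescences 45, 68, 81 and 73 members lay above their group mean on replicates 1 to 4. The differences between arrays of the same number therefore differed in size. Their medians were 1.44, 1.40, 1.11 and 1.22 for numbers 1 to 4, and 109, 107, 75 and 92 members reached 1. The 25S ribosomal RNA control probe set differed by replicate number as well: it read 359, 954, 2768 and 8660.0 on gir arrays 1 to 4 and 345, 835, 3424 and 6585 on the Col-7 arrays. Whether it has a part in the members' spread was not tested.

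**Figure D2:**
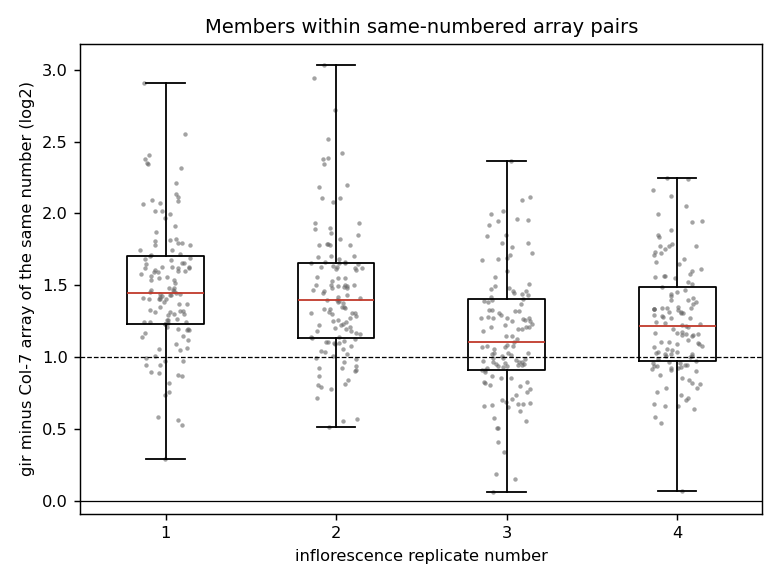
Difference between the gir and the Col-7 inflorescence array of the same replicate number (vertical axis, log2 of intensity + 26) for each of the 125 members, by replicate number (horizontal axis). Points are members, the red line is the median, the box spans the interquartile range and the whiskers reach the lowest and highest. Every point lies above 0, as the rule requires, and the medians of 1.11 and 1.22 for replicates 3 and 4 lie below the 1.44 and 1.40 of replicates 1 and 2.

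Among transcription factors, 3 AP2/ERF proteins were members: AT1G44830, AT3G57600 and AT5G65130. AT1G44830 read 161, 223, 334 and 355 in gir inflorescences, against 49.2, 80.5, 64.1 and 65.8 in Col-7 inflorescences, a log2 difference of 1.65 ± 0.22 (SE). The groups were far apart, and gir replicate 1 was the lowest gir array. AT3G57600 was tighter, at 421, 401, 459 and 419 in gir and 165, 224, 158 and 149.7 in Col-7 inflorescences, a difference of 1.19 ± 0.12. AT5G65130 was dimmer, with 101, 85.7, 56.8 and 76.4 in gir and 13.5, 9.22, 39.4 and 17.7 in Col-7 inflorescences, and Col-7 replicate 3 came within reach of the lowest gir array. The wider AP2/ERF list of 40 loci, like the other family lists below, was drawn up after these values were seen and gets no test of its own. The list had 10 measured genes, and of the 7 that were not members none rose, AT1G19210 fell by 0.60, and 6 did not pass the limma test.

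STZ was among the brightest members and sat at the edge of the rule. It read 3163, 4405, 4097 and 4727 in gir inflorescences, against 1720.0, 1557, 2569 and 2349 in Col-7 inflorescences. As the rule requires, all gir arrays were above all Col-7 arrays, with gir replicate 4 and Col-7 replicate 3 the highest of their groups. In roots STZ read 2625, 3089 and 749 in gir and 2120.0, 1194 and 1452 in Col-7, the gir range enclosing the Col-7 range. Other members of the early touch and wound list were few: of its 6 measured genes STZ and AT1G66090 were members, and of the other 4, 3 rose in gir inflorescences and none fell. These were the calmodulin-like gene CML38 (1.36), AR781 (0.85) and the EF-hand gene AT4G27280 (0.74). AT3G10040, a trihelix factor known as HRA1 that holds the low-oxygen response in check, is described with the hypoxia genes.

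Of the TIR-domain genes, AT3G04210, AT2G20142 and AT1G66090 were members. AT3G04210, which encodes a TIR and nucleotide-binding protein, read 625, 578, 481 and 541 in gir inflorescences and 124, 169.7, 203 and 155 in Col-7 inflorescences. It was very dim in roots, at 4.12, 8.3 and 2.97 in gir and 3.7, 4.17 and 6.75 in Col-7. AT1G66090, of the same structure, read 229.7, 319, 404 and 664 in gir and 61.3, 87.2, 203 and 167 in Col-7 inflorescences. Here gir replicate 1 and Col-7 replicate 3 nearly met, and the difference of 1.48 carried an SE of 0.36. AT2G20142 read 124, 128, 139 and 213 in gir inflorescences, against 16.7, 28.4, 42.9 and 35.8 in Col-7 inflorescences, with gir replicate 4 standing above the other gir arrays.

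The wider TIR family held further genes that rose in gir inflorescences. Of 70 listed loci 51 were measured, and among the 48 that were not members 12 rose, none fell and 36 did not pass the limma test, with a median difference of 0.30 against 0.05 over all probe sets. The largest of the 12 were AT5G58120 at 1.54 ± 0.38 (SE), which missed membership because its groups overlapped, AT1G72940 at 0.98 ± 0.14 and AT1G72920 at 0.91 ± 0.15. In roots none of the 48 passed the limma test in either direction, where only 1.16% of all probe sets rose and 1.55% fell. Over all probe sets 7.08% rose and 8.64% fell in gir inflorescences, and these shares stand beside the counts of the other lists too.

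PUB23 read 203, 288, 311 and 263 in gir inflorescences, against 48.4, 76.1, 109 and 88.2 in Col-7 inflorescences, and its lowest gir array was well above its highest Col-7 array. The ubiquitin ligase and F-box list held 26 measured genes, of which PUB23 alone was a member. Of its other 25, 3 rose in gir inflorescences, 3 fell and 19 did not pass the limma test. No named member came from 13 measured salicylate and immune regulators (1 rose, 12 did not pass, median 0.03). The same held for 6 WRKY factors (1 fell, 5 did not pass). Of the 19 loci on the plant defence response list only 1 was measured, and it did not pass. Lists count only probe sets that name 1 gene, so the unnamed members could not be placed in them. Since 0.55% of all probe sets are members, finding none among so few genes says little about these families. AT4G01700, a chitinase, read 219, 278, 262 and 288 in gir and 65.2, 67.6, 94.2 and 115 in Col-7 inflorescences, a difference of 1.39 ± 0.15. SBT3.3, a subtilase linked to immune priming, was faint, with 75.5, 57.6, 84.6 and 53.8 in gir and 8.97, 21.8, 2.63 and 1.84 in Col-7 inflorescences. All SBT3.3 values lay under the 40th percentile of their array. AT5G39020, a receptor kinase with a malectin-like domain, read 209, 213, 248 and 286 in gir and 52.1, 64.6, 113 and 102 in Col-7 inflorescences. SBT3.3 and AT5G39020 were named after their values were seen, as were the genes of the family lists that are not members, and the members below that are outside the 15 largest inflorescence differences, the other gene lists, the extremes of the tissue comparison and the thresholds.

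**Figure D3:**
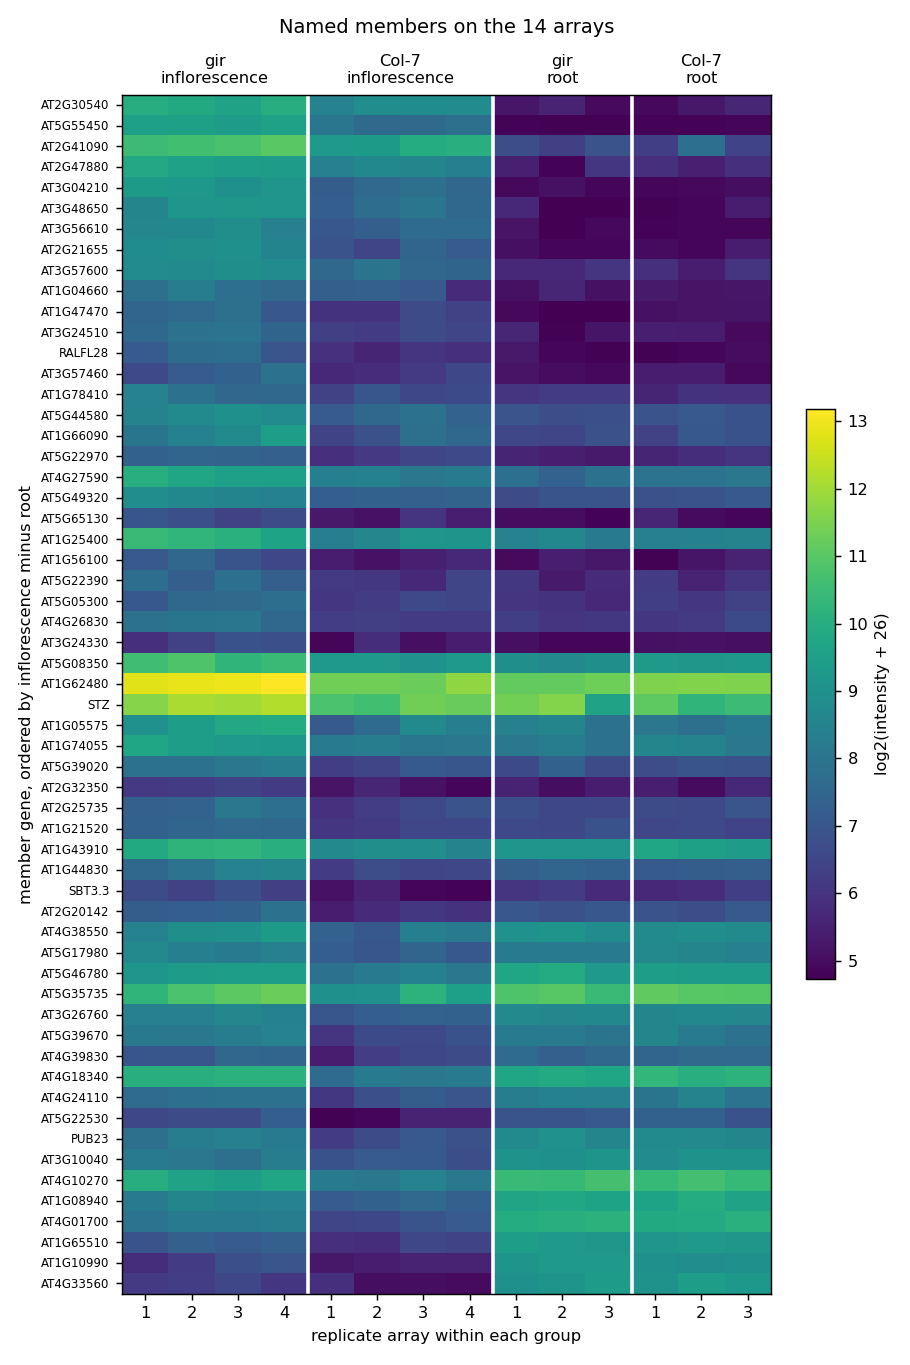
Level of the 58 named members (rows) on the 14 arrays (columns), as log2(intensity + 26), ordered by the difference between inflorescences and roots; white lines part gir inflorescences, Col-7 inflorescences, gir roots and Col-7 roots. The gir inflorescence columns are brighter than the Col-7 inflorescence columns in every row, while root columns range from the lowest levels in the top rows to above both inflorescence groups in the bottom rows.

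Calcium sensors were represented by AT5G39670, an EF-hand protein, and AT2G41090, a calmodulin-like protein. AT5G39670 read 254, 251, 282 and 327 in gir inflorescences and 39.9, 71.8, 70.5 and 90.4 in Col-7 inflorescences, the third largest difference among named members at 1.72 ± 0.17. AT2G41090 was brighter, with 1438, 1558, 1688 and 2025 in gir and 588, 616, 973 and 1030.0 in Col-7 inflorescences. In both genotypes replicates 3 and 4 of AT2G41090 stood above replicates 1 and 2. Among the 22 measured calmodulin-like genes that were not members, 7 rose, 4 fell and 11 did not pass the limma test in inflorescences, with a median of 0.22. The family therefore moved both ways. CML37 rose by 1.27 ± 0.33 (SE), while AT4G03290 fell by 3.00 ± 0.21, AT1G24620 fell by 2.27 ± 0.12, AT1G32250 fell by 2.01 ± 0.18 and AT1G73630 fell by 1.60 ± 0.17.

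Of the core hypoxia genes 4 were members: AT4G10270 and AT4G33560, both of the wound-responsive protein family, AT3G10040 and AT4G24110. AT4G10270 read 994, 747, 662 and 818 in gir inflorescences, against 278, 254, 331 and 249.5 in Col-7 inflorescences. AT3G10040 read 261, 243, 203 and 281 in gir and 91.3, 116, 114 and 83.4 in Col-7 inflorescences, and AT4G24110 read 177, 198, 212 and 212 in gir and 43.2, 83.5, 122 and 97.6 in Col-7 inflorescences. In each of these 3 genes the groups were apart, as the rule requires of every member. AT4G33560 read 45.8, 51.1, 67.2 and 40.4 in gir and 32.9, 6.8, 7.06 and 5.57 in Col-7 inflorescences, where Col-7 replicate 1 came near the lowest gir array.

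All 4 of these genes were brighter in roots of both genotypes. AT4G10270 read 1359, 1301 and 1638 in gir roots and 1313, 1599 and 1300.0 in Col-7 roots, and AT4G33560 read 475, 529.5 and 628 in gir roots and 516, 677 and 571 in Col-7 roots. The gir inflorescences thus stood between Col-7 inflorescences and the roots. Among the 15 measured core hypoxia genes that were not members, 4 rose in gir inflorescences, 1 fell and 10 did not pass the limma test, with a median of 0.36. Those that rose were CML38, which is also on the calmodulin-like list, AT3G03270 (0.66), AT3G27220 (0.62) and AT1G26270 (0.39). AT3G23170 fell by 0.63. None of the 15 passed the limma test between gir and Col-7 roots, where only 1.16% of all probe sets rose and 1.55% fell.

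Of the enzymes that cut callose and related wall glucans, the GH17 family of beta-1,3-glucanases, AT4G18340, AT4G26830 and AT3G24330 were members. AT4G18340 had the largest difference of any named member, 2.04 ± 0.12 (SE). It read 1046, 1037, 1086 and 1102 in gir inflorescences, a very tight group, against 179.9, 275, 248 and 268 in Col-7 inflorescences. In roots it read 827, 922 and 831 in gir and 1256, 1022 and 1138 in Col-7, so gir inflorescences reached the level of the roots while Col-7 inflorescences stayed far below it. AT4G26830 read 210.0, 234, 239 and 163 in gir inflorescences and 50.5, 53.8, 47.4 and 48.4 in Col-7 inflorescences, and in roots it stayed near the Col-7 inflorescence level. AT3G24330 was faint, with 31.7, 57.4, 90.3 and 84.9 in gir and 2.94, 30.7, 7.51 and 15.8 in Col-7 inflorescences.

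Among the 36 measured GH17 genes that were not members, 7 rose, 3 fell and 26 did not pass the limma test in inflorescences. Their median of 0.20 stands beside 0.05 over all probe sets. AT4G31140 and AT5G58090 rose by 0.66 ± 0.09 (SE) and 0.65 ± 0.14, whereas AT5G20390 fell by 2.96 ± 0.29 and AT5G64790 fell by 2.93 ± 0.13. AT1G56100, of the family of proteins that inhibit invertases and pectin methylesterases, was a member as well, at 112, 158, 95.2 and 65.4 in gir and 14.97, 9.42, 18.6 and 24.6 in Col-7 inflorescences. The list of 54 measured cell wall expansion and remodelling genes held no member, and neither did those of 51 glycosyltransferases, 26 cytochromes P450 or 36 photosynthesis genes, beside 0.55% of all probe sets that are members. In gir inflorescences 3 of the cell wall genes rose and 16 fell. Of the glycosyltransferases 6 rose and 2 fell, of the cytochromes P450 2 rose and 2 fell, and of the photosynthesis genes 1 rose and 1 fell.

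**Figure D4:**
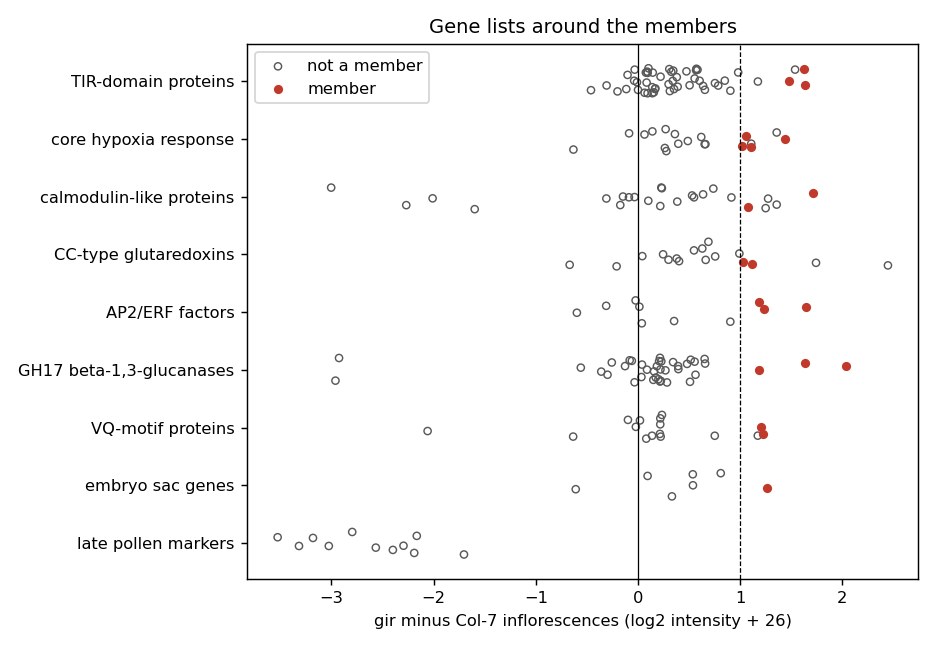
Difference between gir and Col-7 inflorescences (horizontal axis, log2 of intensity + 26) for every measured gene of 8 families around the members and of the late pollen markers; filled red points are members, open points are not. The dashed line marks the limit of 1, and vertical jitter has no meaning. All 11 pollen markers lie below -1.7, and a few genes of the calmodulin-like, GH17 and VQ lists lie among them.

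The CC-type glutaredoxins AT2G30540 and AT2G47880 were members. AT2G30540 read 1003, 900.1, 743 and 996 in gir inflorescences and 333, 439, 429.5 and 417 in Col-7 inflorescences. AT2G47880 read 878, 724, 675 and 628 in gir and 317, 386, 352 and 307 in Col-7 inflorescences. Both were dim in roots, where no value exceeded 41.6. Leaving out the 3 glutaredoxins of this class that the rule sets aside by name, 12 more were measured: 3 rose in gir inflorescences, 1 fell and 8 did not pass the limma test. AT4G15680 rose by 0.99 ± 0.12 (SE), AT3G62950 by 0.76 ± 0.11 and AT1G06830 by 0.69 ± 0.17, and AT5G18600 fell by 0.67 ± 0.14.

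Next come 4 genes put together by hand after their values were seen. RALFL28, a RALF-type signalling peptide, read 119, 185, 196 and 97.9 in gir inflorescences and 35.3, 22.9, 39.3 and 33.5 in Col-7 inflorescences. AT3G24510, a defensin-like peptide, read 166, 212, 220.3 and 149.7 in gir and 55.1, 48.2, 74.6 and 63.9 in Col-7 inflorescences. AT1G47470, a gene expressed in the embryo sac, read 153, 172, 205 and 104 in gir and 35.9, 36.97, 74.1 and 56.4 in Col-7 inflorescences. In all 3 the groups were apart, as the rule requires, and no root array exceeded 24.3. Of 6 other measured embryo sac genes LCR80 rose by 0.81 ± 0.15 (SE) and AT2G20595 by 0.54 ± 0.11, AT2G20070 fell by 0.61 ± 0.14, and 3 did not pass the limma test. AT5G05300, a peptide of the IDA-like family, read 107, 165, 176 and 195 in gir and 40.3, 47.6, 71.1 and 63.3 in Col-7 inflorescences. In roots it read 40.2, 36.3 and 24.9 in gir and 52.6, 40.3 and 57.4 in Col-7, which overlaps the Col-7 inflorescence values.

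Other members spanned lipid, metal and signalling proteins. AT5G55450, a lipid transfer protein, read 698, 719, 639 and 732 in gir inflorescences, against 241, 174, 175 and 204 in Col-7 inflorescences, and no more than 2.4 in any root. AT1G62480, the brightest named member in gir inflorescences, read 7026, 7667, 7887 and 9239 in gir and 2590.0, 2603, 2396 and 3497 in Col-7 inflorescences. In roots AT1G62480 read 2225, 2230.0 and 2530.0 in gir and 2965, 3049 and 2982 in Col-7, one of the larger root differences that the rule admits at -0.36. AT4G27590, with a heavy metal-associated domain, read 1007, 805, 692 and 691 in gir and 303, 323, 246 and 264 in Col-7 inflorescences.

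The VQ-motif proteins AT1G78410 and AT5G46780, which bind WRKY factors or act beside them, were members with differences of 1.22 ± 0.21 and 1.20 ± 0.12. Of 14 other measured VQ genes 1 rose, 2 fell and 11 did not pass the limma test, and AT3G18360 fell by 2.06 ± 0.15 (SE). AT5G08350, with a GRAM domain, read 1512, 1840.0, 1187 and 1380.0 in gir inflorescences, against 594, 583, 491 and 600.3 in Col-7 inflorescences. AT1G43910, an AAA-type ATPase, read 906, 1175, 1235 and 1043 in gir and 395, 449.9, 437 and 337 in Col-7 inflorescences. The groups of both genes were well apart. AT2G21655, with the second largest difference among named members, read 434, 458, 476 and 344 in gir and 91.7, 64.4, 155 and 121 in Col-7 inflorescences. AT5G22530 was very dim in Col-7, with 68.7, 76.3, 74.2 and 127 in gir and 1.55, 2.4, 21.9 and 20.1 in Col-7 inflorescences. AT1G05575 read 489, 685, 874 and 949.6 in gir and 115, 180.4, 398 and 301 in Col-7 inflorescences, and replicate 1 was the lowest array of both genotypes. AT4G39830, related to ascorbate oxidases, read 101, 101, 156 and 153 in gir and 16.02, 51.4, 67.8 and 75.7 in Col-7 inflorescences.

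AT5G35735 and AT1G25400 were among the brighter of the remaining named members. AT5G35735 read 1192, 1743, 2070.0 and 2456 in gir inflorescences, against 480.3, 489, 1133 and 701 in Col-7 inflorescences, where gir replicate 1 and Col-7 replicate 3 lay close together. AT1G25400 read 1352, 1220.0, 1072 and 772 in gir and 301, 375, 538 and 523 in Col-7 inflorescences, and gir replicate 4 was the lowest gir array. AT4G38550, a phospholipase-like protein whose probe set may also bind related transcripts, read 329, 469, 473 and 618 in gir and 141, 107, 309 and 273 in Col-7 inflorescences, the groups lying only just apart. AT5G17980, with a C2 domain, read 387, 308, 272 and 311 in gir and 126, 101, 153 and 108 in Col-7 inflorescences. AT5G49320 was tighter in both genotypes, at 445, 382, 348 and 322 in gir and 127, 139, 134 and 146 in Col-7 inflorescences. AT1G04660, a glycine-rich protein and the named member that missed the limma threshold, read 205, 281, 198 and 175 in gir and 129, 135, 112 and 28.4 in Col-7 inflorescences. Its Col-7 replicate 4 lay far below the other Col-7 arrays. AT3G56610 read 375, 383, 448 and 314 in gir and 104, 130.4, 181 and 178 in Col-7 inflorescences but no more than 10.1 in any root.

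The 67 members that do not name 1 gene had a median inflorescence difference of 1.29, against 1.27 for the 58 that do. They were brighter, with a median intensity of 543 in gir and 160.1 in Col-7 inflorescences, against 273 and 101 for the members naming 1 gene. The 58 named members lay on all 5 chromosomes, with 17, 8, 9, 10 and 14 on chromosomes 1 to 5, and no 2 of them lay within 2 loci of each other.

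The genotypes were averaged within each tissue to compare the members between tissues. A bacterial control transcript, dap, differed between the tissues' arrays: it read 337 to 408 on gir and 318 to 415 on Col-7 inflorescence arrays, and 0.94 to 5.18 on gir and 1.53 to 10.1 on Col-7 root arrays. Its part in the contrast cannot be told apart from the tissue. In the limma fit of all 14 arrays 70 of 125 members, or 56.0%, were higher in inflorescences than in roots, beside 37.1% of all probe sets. Another 43, or 34.4%, were lower in inflorescences, beside 33.5% of all probe sets, and 12 did not pass. Over all probe sets 8437 were higher and 7627 lower, and with each array centred on its median 7058 were higher and 9601 lower, while the members' counts were then 65 and 46. With a filter on dim probe sets only 79 members were tested, of which 37 were higher and 34 lower. The average includes the gir inflorescences, in which the rule made every member high, so the larger share of higher calls is partly built in and is not read as a trait of the members. The median contrast was 0.74 over the members and 0.03 over all probe sets. Within gir the median inflorescence minus root difference was 1.22, and within Col-7 it was -0.04. In 33 members gir inflorescences were below gir roots on average, and in 66 Col-7 inflorescences were below Col-7 roots. In 33 members inflorescences were below roots in Col-7 but above roots in gir. In turn these counts are 26.4%, 52.8% and 26.4% of the members, beside 44.5%, 51.4% and 12.5% of all probe sets. The 12.5% leaves out probe sets with the reverse order, which the rule does not admit in members. The rule itself sets gir inflorescences above Col-7 ones in every member. Counted by arrays, 82 members had every gir inflorescence array above every gir root array and 25 the reverse, beside 34.3% and 28.8% of all probe sets. Within Col-7, 37 of the 125 members had every inflorescence array above every root array, a smaller share than the 32.0% of all probe sets. The reverse held for 53 of the 125, a larger share than the 32.9% of all probe sets. The rule sets Col-7 inflorescences below gir ones, so these counts too are partly built in and are not read as a trait of the members.

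**Figure D5:**
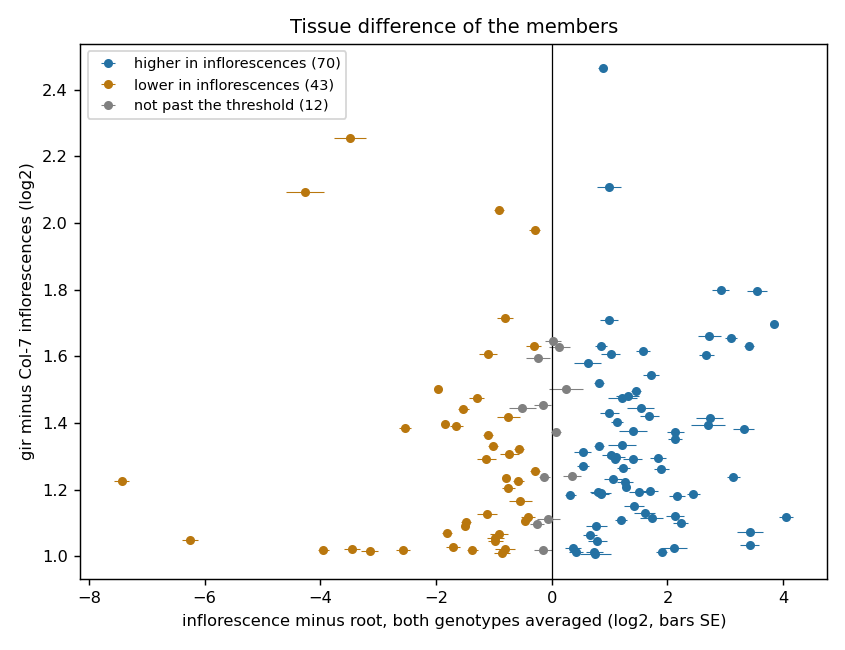
Inflorescence minus root contrast with both genotypes averaged (horizontal axis, log2, bars SE) and gir minus Col-7 inflorescence difference (vertical axis, log2) of the 125 members. Blue points were higher and orange points lower in inflorescences than in roots in the limma fit, and grey points did not pass; 70 are blue, 43 orange and 12 grey. The genotype difference on the vertical axis chose the members and is shown for description.

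Named members lay at both ends of this tissue contrast. Highest in inflorescences were AT2G30540 with a log2 contrast of 4.05 ± 0.12 (SE), AT5G55450 with 3.85 ± 0.07, AT2G41090 with 3.43 ± 0.22, AT2G47880 with 3.42 ± 0.16 and AT3G04210 with 3.41 ± 0.09. Lowest were AT4G33560 with -3.45 ± 0.14, AT1G10990 with -3.15 ± 0.15, AT1G65510 with -2.58 ± 0.12, AT4G01700 with -2.54 ± 0.10 and AT1G08940 with -1.80 ± 0.09. For these 10 genes limma's adjusted p was at most 3.7e-09, and in each the inflorescence and root arrays did not overlap. AT1G10990 read 31.2, 47.7, 85.7 and 97.1 in gir and 12.7, 15.3, 20.3 and 20.9 in Col-7 inflorescences, and 526, 605 and 605 in gir and 474, 443 and 474 in Col-7 roots. AT1G65510 read 95.3, 134, 118 and 135 in gir and 32.04, 31.4, 65.8 and 61.8 in Col-7 inflorescences, and 658, 600.3 and 558 in gir and 546, 592 and 559 in Col-7 roots. AT1G08940, of the phosphoglycerate mutase family, read 273, 365, 324 and 330.2 in gir and 119, 138, 172 and 133 in Col-7 inflorescences, and its root values were all above these.

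The contrast was also read within each genotype, as a description. Of the 70 members called higher, 59 were higher in inflorescences within each genotype and 11 had opposite signs in gir and Col-7. Of the 43 called lower, 33 were lower within each genotype and 10 had opposite signs. Among the named members that were higher within both genotypes, AT3G57600 had an inflorescence minus root difference of 3.01 in gir and 1.88 in Col-7, and AT3G24510 had 2.51 in gir and 1.15 in Col-7. RALFL28 had 2.43 in gir and 1.00 in Col-7, and AT1G47470 had 2.70 in gir and 1.08 in Col-7. Both glutaredoxins and the TIR-domain member AT3G04210 were of this kind as well.

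All 4 core hypoxia members were lower in inflorescences within each genotype. AT4G10270 differed by -0.82 in gir and -2.23 in Col-7, AT3G10040 by -0.97 in gir and -1.99 in Col-7, AT4G24110 by -0.56 in gir and -1.40 in Col-7, and AT4G33560 by -2.89 in gir and -4.02 in Col-7. PUB23 was lower by both measures too, at -0.61 in gir and -1.99 in Col-7. In other members the genotypes differed in sign or size. The EF-hand gene AT5G39670 was called lower, with 0.10 in gir and -1.72 in Col-7, and the TIR-domain gene AT2G20142 likewise, with 0.48 in gir and -1.10 in Col-7. The averaged contrast of AT2G20142, -0.31, had an adjusted p of 0.037 in the limma fit and missed the threshold in 11 recomputations with other settings. AT1G66090 had 2.03 in gir and 0.41 in Col-7, and AT5G65130 had 1.77 in gir and 0.33 in Col-7. Among the GH17 members AT4G18340 had 0.31 in gir and -2.13 in Col-7, AT4G26830 had 1.74 in gir and -0.03 in Col-7, and AT3G24330 had 1.53 in gir and 0.18 in Col-7. The gap between gir and Col-7 inflorescences within these genes is the one that chose them. Of the 12 members that did not pass, AT1G44830, AT1G43910, SBT3.3 and AT2G25735 are the named ones, of which AT1G44830 passed with inflorescence replicates 3 and 4 alone.

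In roots no member passed the limma test between gir and Col-7, where 1.16% of all probe sets rose and 1.55% fell. The rule fixes root differences near 0, and a difference that misses a threshold does not show that levels are equal. By arrays, 9 members had every gir root array above every Col-7 one and 17 the reverse, against 10.8% and 15.7% of all probe sets, and in 99 the groups overlapped.

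Other probe sets met both inflorescence conditions but not the root condition. These were 30 with a root difference below -0.4, whose median inflorescence difference was 1.29, and 10 with a root difference above 0.4, whose median was 1.48. Probe sets lower by 1 or more in gir inflorescences and root-neutral were more numerous, at 645, with a median of -1.81. Of these 548 were higher in inflorescences than in roots in the limma fit, or 85.0%, and 70 were lower. The differences between these sets were not tested, since all were chosen by the same contrasts.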

How the data were processed

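RNA of 14 samples was hybridised to Affymetrix arrays with 22810 probe sets, of which 64 controls were left out. Each deposited value is a linear intensity, made by the authors with MAS5, as the submitters' processing notes record. The MAS5 version and the genome build are not given in the sources used here, and the authors' filters are not stated. In each array the mean intensity without the lowest and highest 2% was 500. Titles gave each sample's group.

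All values were transformed to log2(intensity + 26), 26 being about the 20th percentile of all values. Inflorescences (8 arrays), roots, and the tissue contrast over all 14 arrays (mean of both inflorescence groups minus mean of both root groups) were each fitted with limma 3.58.1 (lmFit, eBayes) in R 4.3.3 without a filter, two-sided, with Benjamini-Hochberg adjustment over 22746 probe sets and a threshold of 0.05. On simulated data with 22746 probe sets, rises and falls of 1 were each recovered to 98% by the tissue fit. The inflorescence fit recovered 86% of rises and 80% of falls of 1, and the root fit 72% and 78%. Rises of 0.5 were recovered to 70% by the tissue fit, 32% by the inflorescence fit and 28% by the root fit. A gene that did not pass may thus still differ by such an amount. Python 3.11.15 with matplotlib 3.10.9 drew the figures. Probe sets were named from the platform annotation, updated through the TAIR10.1 gene table: 13513 named 1 gene, 503 several and 8730 none. Of the first kind 13484 matched that table. A gene of a list is called measured where a probe set names it alone, so other genes of a list may still be on the array.

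The members and gene lists were chosen with earlier results of these data known. Named genes are the 15 members with the largest inflorescence difference, members in lists, the 5 highest and 5 lowest in the tissue contrast, and probe sets next to a threshold. Others were named after their values were seen.

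Deviations from the group means of same-numbered gir and Col-7 inflorescence arrays correlated at 0.587, 0.191, 0.203 and 0.516 over 13970 brighter probe sets (0.412, 0.095, 0.110 and 0.305 over all), and of roots at 0.077, 0.007 and 0.017. Arrays of different numbers reached 0.402 (gir 4 with Col-7 3), 0.249 (gir 3 with Col-7 4) and 0.188 (gir 1 with Col-7 2), so numbers 1 and 2 and numbers 3 and 4 also ran together. Every same-numbered inflorescence value exceeded 0.1 over the brighter probe sets, so same-numbered inflorescence arrays were also compared as pairs. The reported fits, their SEs and the counts for gene lists did not use the numbers. With replicate number as a block, 2113 probe sets were higher and 2205 lower in gir inflorescences, against 1610 and 1965 as reported. No label states a pairing. Other pseudocounts, scalings, filters, a replicate block and left-out arrays were tried. Promoter motifs and sequences were not analysed here.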

Additional observations from a re-analysis of the deposited data

Results flagged for a closer look

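In 6 of 98 groups of 4 inflorescence arrays of named members, 1 array lay far from the others of its group, where chance gives about 1 in 20. AT2G20142 read 212.6 on gir replicate 4, against 124.0 to 139.0 on the other gir arrays, and AT5G22530 read 127.1 on the same array, against 68.7 to 76.3. AT3G48650, a transcribed pseudogene, read 363.6 on gir replicate 1, against 543 to 562 on the other gir arrays. AT3G26760, a Rossmann-fold dehydrogenase, read 376.7 on gir replicate 3, against 315 to 325. AT4G33560 read 32.9 on Col-7 replicate 1, against 5.57 to 7.06 on the other Col-7 arrays, and AT5G08350 read 491.0 on Col-7 replicate 3, against 583 to 600.3.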

How the results depend on the processing

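The number of members, 125, was 176 with a pseudocount of 8, 91 with 64, 137 after quantile normalization and 149 after median centring. Leaving out 1 array at a time gave 111 to 193, the highest without gir inflorescence replicate 1. Inflorescence replicates 1 and 2 alone gave 198 (116 of them members), and replicates 3 and 4 alone 137 (87 of them members). Both subsets were chosen after seeing the data. The count of members higher in inflorescences than in roots, 70, was 37 with the filter on dim probe sets, which left 79 members tested, and 67 to 71 with 1 array left out. The lower count of 43 was 42 to 44 with 1 array left out. With the replicate block these counts were 70 and 43, and the number of probe sets that differed between gir and Col-7 inflorescences was 4318 in place of 3575. That number was 2678 to 3992 with 1 array left out, 1119 with replicates 1 and 2 alone and 2012 with replicates 3 and 4 alone, where fewer arrays entered the fit. For 49 named members, 686 genotype differences were recomputed, and all kept their sign. With other pseudocounts or left-out arrays the rule's lack of overlap fixes the sign, so this is no support. Of the 686, 23 moved by more than the spread between replicates. These were 19 with another pseudocount and 4 with inflorescence replicates 1 and 2 or 3 and 4 alone. Of 1055 recomputed tissue contrasts 1031 kept their side of the threshold, 23 lost the call, among them AT2G20142 in 11, and none reversed. The cause of the other changes was not tested.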
